A study of Solanum tuberosum with 9 samples.

Results

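This comparison sets stolons of potato plants (Solanum tuberosum, variety Kexin 13) under excessive nitrogen, labelled AN2, against stolons under conventional nitrogen, labelled AN1. It uses 6 of the 9 libraries of the series, AN1-1 to AN1-3 and AN2-1 to AN2-3, chosen by their treatment label. The other 3 libraries, from plants under nitrogen deficiency (AN0), entered the fit only to help estimate the spread. The labels give no nitrogen dose, plant age, sampling time or stolon stage, and they do not state that a treatment's 3 libraries are different plants. The p-values therefore set the difference between treatments only against the scatter of these libraries, AN0 included, and part of that scatter may be technical. The stated subject of the series is tuber formation under different nitrogen supply.

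Stolons are underground shoots whose tips stop elongating and swell into tubers. As background, swelling goes with starch deposition, sucrose synthase activity and massive synthesis of patatin and protease inhibitors, and ample nitrogen is known to favour shoot growth and to delay tuber formation. Nitrogen status also acts through nitrate reduction, amino acid transport, and hormone and florigen signals. Most potato genes in the deposited tables are known by a locus number (LOC) only, with no product name, so no role is given for them.

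Total counts were between 30952622 and 38235348 per library in the 6 libraries. Libraries of AN1 resembled one another most, with correlations of log2 CPM between libraries of 0.960 to 0.974. These are taken across genes, which are no replicates. AN2-2 (0.929 to 0.953) and AN2-1 (0.929 to 0.944) lay nearly as close to the AN1 libraries, whereas AN2-3 correlated with them at only 0.859 to 0.887 and with AN2-2 at 0.885. Its correlation with AN2-1 was 0.930, so AN2-3 stood apart from AN1 and AN2-2 more than from AN2-1. It was also poorest in tuber storage transcripts and richest in photosynthesis transcripts, as given beside the gene lists, and counts of calls are given with and without it. In bulk tissue, fewer cells of a type and less RNA per cell cannot be told apart.

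Excess nitrogen was accompanied mostly by rises. Of 21223 tested genes, 137 were higher in AN2 (0.646%) and 11 lower (0.0518%) by edgeR's quasi-likelihood test with a Benjamini-Hochberg adjusted p under 0.05. Without adjustment, 2033 genes were higher and 897 lower at that threshold, together 13.8% of the tested genes. All 148 calls changed by at least 2-fold. Among the rises, 82 were at least 4-fold and 32 at least 8-fold, with a median log2 fold change of 2.29 and a median standard error of 0.34. The 11 falls had a median of -1.94 and ran from -1.11 to -7.80. In each of the 148 genes all 3 AN2 libraries lay beyond all 3 AN1 libraries. These calls rested on all libraries of the comparison but AN2-2: edgeR called 0 genes without AN1-1, AN1-3 or AN2-1, 1 without AN1-2 and 1 without AN2-3. With those 5 libraries left out in turn, between 2072 and 2352 genes had an unadjusted p under the threshold, and all 148 genes kept their direction and an unadjusted p under it. As their groups do not overlap, the direction could hardly have changed. The count of calls was 10 without AN0-2, 96 without AN0-3 and 367 without AN2-2, of which 135 were among the 148. On the full set DESeq2 called 1235 genes and voom with quality weights 5260, and both lists hold all 148. The share of rises was 92.6% by edgeR, 75.3% by DESeq2 and 56.6% by voom.

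**Figure D1:**
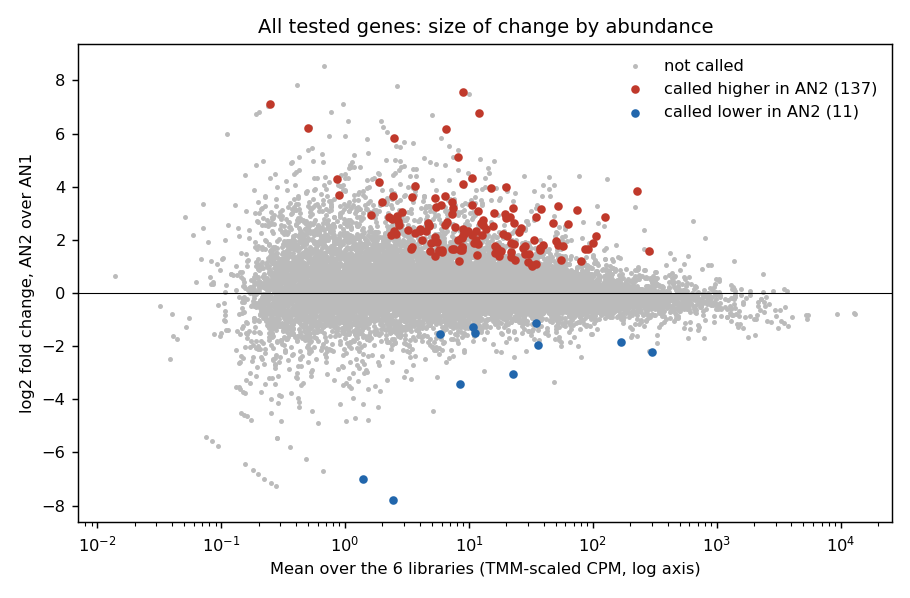
Each point is 1 of the 21223 tested genes, with its mean over the 6 libraries in TMM-scaled CPM on a log axis and its log2 fold change of AN2 over AN1. The 137 genes called higher lie between 0.249 and 286 CPM. Of the 94 genes above 1000 CPM 0 were called in either direction, against 0.697% of all tested genes.

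Across all tested genes the typical change was small. The median log2 fold change was 0.02, the middle 50% of genes lay between -0.26 and 0.40, and 10913 genes (51.4%) were positive. The tails were uneven. A log2 fold change of 1 or more was fitted for 2417 genes (11.4%) and of -1 or less for 934 (4.40%), and beyond 2 in size there were 836 positive and 203 negative genes. Taken as a count of separated groups, 2816 genes (13.3%) had all AN2 values above all AN1 values and 1966 (9.26%) had all below. That lower count depended on scaling: with library totals in place of TMM factors it was 879, against 3697 higher, and the median of all genes moved to 0.22. The TMM factors were 1.18 and 1.21 for AN2-1 and AN2-3 and 0.920 to 0.983 for the other 4 libraries.

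Replicates agreed less well under excess than under conventional supply. The median standard deviation of log2(CPM+1) was 0.24 in AN1 and 0.32 in AN2, and it was larger in AN2 for 14049 genes (66.2%). Measured against the AN1 mean, AN2-3 differed at least 2-fold in 17.7% of genes, AN2-1 in 8.10% and AN2-2 in 6.02%. For an AN1 library against the mean of the other AN1 libraries the share was 0.886% to 3.61%. The AN2 shares also hold the difference between treatments, so they do not measure replicate agreement alone. All 3 AN2 libraries were at least 2-fold above the AN1 mean in 389 genes (1.83%) and at least 2-fold below it in 76 (0.358%). Of these, 127 and 9 were called. A further 1495 genes were 2-fold higher in AN2-3 alone and 859 were 2-fold lower there alone. AN2-1 and AN2-3 shared 458 genes higher and 348 lower by that size that AN2-2 did not, while AN2-1 and AN2-2 shared 52 and 60 that AN2-3 did not.

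Within the called genes the libraries also differed in strength. AN2-3 had the highest value in 94 of the 137 risen genes, AN2-2 in 22 and AN2-1 in 21. AN2-2 was nearest to AN1 in 90. The groups still stood well apart, since the lowest AN2 value was a median of 2.81 times the highest AN1 value and at least 1.73 times it in every risen gene. For 121 of the 137 this gap was at least 2-fold. Without AN2-3 the median size of the 148 changes was 2.11 on the log2 scale, against 2.27 with it.

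A symbol or synonym beyond the locus number is carried by 6 of the 148 called genes. They are 6 of 451 such genes tested (1.33%, against 0.697% of all tested genes), and all 6 rose. Of these, 5 are described here. STBRC1B, a BRANCHED1-type TCP transcription factor that restrains the outgrowth of axillary buds, stood at 3.22, 5.16 and 5.33 CPM in AN1 and at 26.9, 12.5 and 23.4 CPM in AN2. The groups are clearly separated, with AN2-2 the lowest of the AN2 libraries (edgeR adjusted p = 0.0372). Its namesake STBRC1A overlapped, at 0.558 to 1.08 CPM in AN1 and 5.90, 0.962 and 1.20 CPM in AN2, and was not called. TSF, whose symbol is that of an Arabidopsis florigen gene, stood at 6.50, 10.4 and 7.29 CPM in AN1 and 38.2, 27.5 and 66.8 CPM in AN2. Here AN2-3 is the highest by far, and the log2 fold change was 2.45 with all libraries and 2.03 without AN2-3. LOC102603225 and LOC102582421, which carry TSF as a synonym, overlapped between groups and were not called. LOC102603225 is more abundant, at 61.3 to 77.1 CPM in AN1 and 74.9 to 145 CPM in AN2 (0.76 on the log2 scale). LOC102582421 stood at 2.69 to 10.3 CPM in AN1 and 5.52 to 10.03 CPM in AN2 (0.31).

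STUGE51, a UDP-glucose epimerase that supplies UDP-galactose for cell wall polymers, stood at 13.1, 11.6 and 14.04 CPM in AN1 and 35.7, 34.9 and 60.5 CPM in AN2. AN2-1 and AN2-2 are nearly equal, and AN2-3 is again the highest. PLC1, a phosphoinositide-specific phospholipase C of membrane signalling, had very even AN1 values of 8.11, 7.73 and 7.71 CPM and AN2 values of 24.7, 15.6 and 36.3 CPM. For both genes the AN0 libraries lay above AN1 as well, at 18.4 to 33.5 CPM for STUGE51 and 16.1 to 24.3 CPM for PLC1. The gene LOC102577743, with the synonym pp34, rose from 43.5 ± 10.2 to 137 ± 41.5 CPM (SD, n = 3, edgeR adjusted p = 0.0447).

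**Figure D2:**
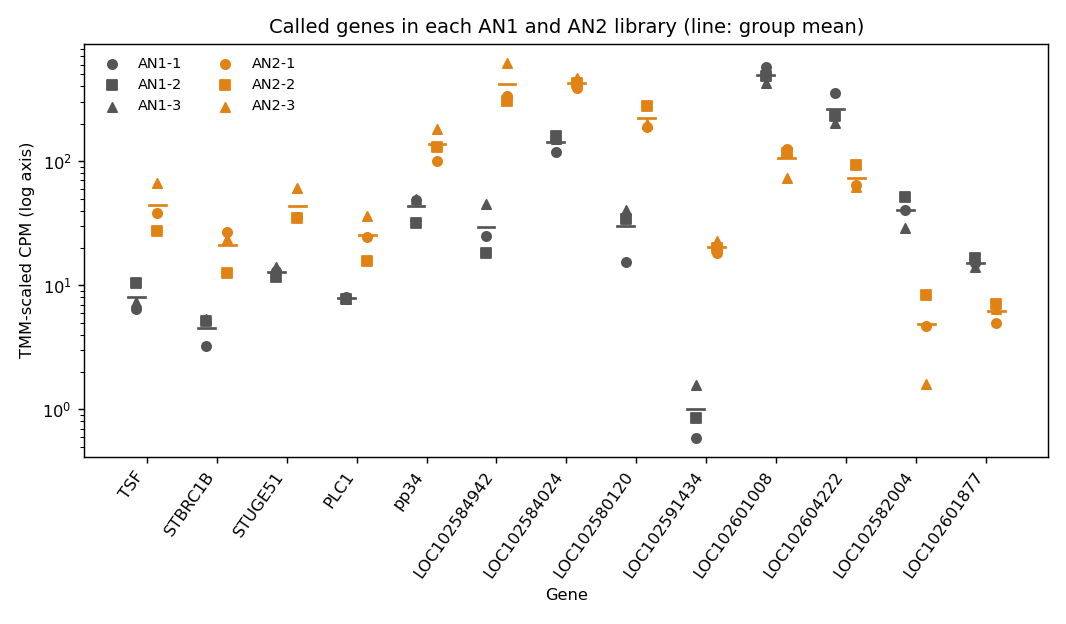
The plot gives the TMM-scaled CPM (log axis) of 13 called genes in each AN1 (grey) and AN2 (orange) library, with symbols for the library number and a line at the group mean. In all 13 genes the AN1 and AN2 points do not overlap, and in TSF, STUGE51 and PLC1 the highest value is that of AN2-3.

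Where the mean reached 5 CPM, the largest rises were all in genes known by number. LOC102599419 was near 0 under conventional supply, with 4, 0 and 5 counts in AN1-1 to AN1-3, and had 162, 224 and 1580 counts in AN2-1 to AN2-3. Its log2 fold change of 7.55 ± 1.21 (edgeR adjusted p = 0.0381) was 5.85 without AN2-3. LOC102599025 went from 2, 1 and 19 counts to 462, 234 and 1980, and LOC102593327 from 1, 1 and 16 to 363, 150 and 952. In these 3 genes the AN2-3 value exceeds the next highest AN2 value by more than 2-fold, yet AN2-1 and AN2-2 also lie far above AN1. LOC102587812 had the same form, at 0.525, 0.158 and 0.663 CPM in AN1 and 5.15, 8.56 and 33.9 CPM in AN2.

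LOC102591434 was different in that its AN2 values were even. It stood at 0.591, 0.855 and 1.57 CPM in AN1 and at 18.1, 20.01 and 22.6 CPM in AN2, which is 4.32 ± 0.48 on the log2 scale (edgeR adjusted p = 0.0188). It was called in 16 of 22 alternatives, the most among the 86 genes chosen by rule, and was 4.23 higher without AN2-3. LOC102589836, singled out after its values were seen, stood at 12.8, 12.7 and 14.2 CPM in AN1 and 89.5, 98.5 and 56.3 CPM in AN2. There AN2-3 is the lowest of its group, and LOC102589836 is the gene still called without AN2-3. The other 5 of the 10 largest rises were LOC102594531, LOC102584372, LOC102593204, LOC102584942 and LOC102588894, with log2 fold changes from 3.66 to 4.10. In 4 of these 5 AN2-2 had the lowest AN2 value, and in all 5 AN2-3 had the highest.

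The 10 most abundant called genes were moderately expressed, with 8 rises and 2 falls. LOC102584942 combined abundance with a large rise, from 24.7, 18.3 and 45.5 CPM in AN1 to 336, 306 and 622 CPM in AN2 (3.83 ± 0.59 on the log2 scale, edgeR adjusted p = 0.0372). Per length, it went from a mean of 41.4 FPKM to 700.3 FPKM in the authors' FPKM values. Among these 10 only LOC102584024, the rise with the highest mean CPM, reached a higher mean FPKM in AN2, with 230 FPKM in AN1 and 797 FPKM in AN2.

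LOC102584024 was also among the most even, at 118, 158 and 152 CPM in AN1 and 387, 430 and 470 CPM in AN2. LOC102580120 rose from 15.5, 34.6 and 40.7 to 188, 277 and 199 CPM, with AN2-2 the highest, and its AN0 values of 12.6 to 18.1 CPM lay within or below the AN1 range. LOC102577927 (179, 188 and 156 CPM in AN2) and LOC107061923 (124, 190 and 155 CPM in AN2) likewise had their highest value in AN2-2, against AN1 means of 39.2 and 42.4 CPM. In these 3 genes AN2-3 was not the highest library. LOC102586010 and LOC102583760 rose by 1.67 and 1.22 on the log2 scale.

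The falls were few. LOC102601008, the most abundant of all 148 called genes, stood at 570, 484 and 424 CPM in AN1 and at 126, 116 and 73.4 CPM in AN2 (-2.23 ± 0.31 on the log2 scale, edgeR adjusted p = 0.0301). Every AN2 library lies more than 3-fold below the lowest AN1 library, and the AN0 libraries, at 224 to 351 CPM, lie between. LOC102604222 fell from 352, 231 and 205 to 64.7, 93.8 and 62.1 CPM, where AN0 also was low (53.6 to 95.5 CPM). LOC102582004 fell from 40.5, 51.2 and 29.1 to 4.71, 8.38 and 1.60 CPM.

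Some smaller falls were closely replicated. LOC102589228 stood at 12.9, 18.5 and 18.2 CPM in AN1 and 5.54, 5.99 and 5.92 CPM in AN2. LOC102601877 fell from 15.2 ± 1.28 to 6.20 ± 1.09 CPM and LOC102597878 from 47.8 ± 5.18 to 22.2 ± 2.32 CPM (SD, n = 3). For both of these the AN0 libraries lay above all AN1 libraries, at 19.0 to 21.1 and 59.8 to 84.8 CPM. The remaining falls above 5 CPM were LOC102601570, LOC102596064 and LOC102603425, with log2 fold changes of -3.43, -1.94 and -1.54. The AN2 values were uneven in LOC102601570 (0.480 to 2.24 CPM) and LOC102596064 (8.64 to 23.8 CPM), as in LOC102582004.

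In 4 called genes 1 group was at or near 0 in every library. LOC102599950 had 168, 72 and 247 counts in AN1 and 0, 1 and 1 in AN2, and LOC102585605 had 74, 28 and 181 counts in AN1 and 0, 1 and 1 in AN2. Both had counts in all AN0 libraries, 90 to 168 and 29 to 106. LOC102593752 had 0 counts in all AN1 libraries, 17, 15 and 23 in AN2 and 12 to 15 in AN0, so AN1 alone was at 0. LOC107058373 had at most 1 count in any AN1 or AN0 library and 21, 29 and 59 in AN2. LOC102599950 was the only gene called without AN1-2 (edgeR adjusted p = 0.0478). These 4 were singled out after their values were seen.

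Long non-coding RNA genes were called rarely. Of 1026 tested genes that RefSeq types as lncRNA, 3 were higher and 0 lower, which is 0.292% against 0.719% of 20164 protein-coding genes, and the difference in share was not tested. The 3 were LOC102605530, LOC107059582 and LOC107062635, with log2 fold changes of 2.90, 2.86 and 2.09 and narrow AN2 ranges, for instance 3.63 to 4.21 CPM in LOC107059582 against 0.443 to 0.635 CPM in AN1. Non-overlapping groups were about as common in the 2 types for higher values, at 13.9% of lncRNA and 13.2% of protein-coding genes, and stood at 5.95% and 9.44% for lower values, a difference that was not tested. The lncRNA genes are expressed lower, with a median of 1.52 CPM against 13.5 CPM.

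The direction of change shifted with abundance. Among the 6999 genes with a mean of 1 to 10 CPM, 18.2% had all AN2 values above AN1 and 7.36% all below. Among the 1675 genes of 100 to 1000 CPM it was 5.91% above and 17.5% below, and among the 94 genes over 1000 CPM 2.13% above and 28.7% below. Calls were 4 under 1 CPM (0.151% of that class), 68 between 1 and 10 CPM (0.972%) and 70 between 10 and 100 (0.714%). There were 6 between 100 and 1000 (0.358%) and 0 above, against 0.697% of all tested genes. The 0 says little, as the class over 1000 CPM holds only 94 genes. With library totals in place of TMM factors, the class of 100 to 1000 CPM had 8.96% above and 8.90% below, while the class over 1000 CPM kept its tilt with 2.13% above and 22.3% below.

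**Figure D3:**
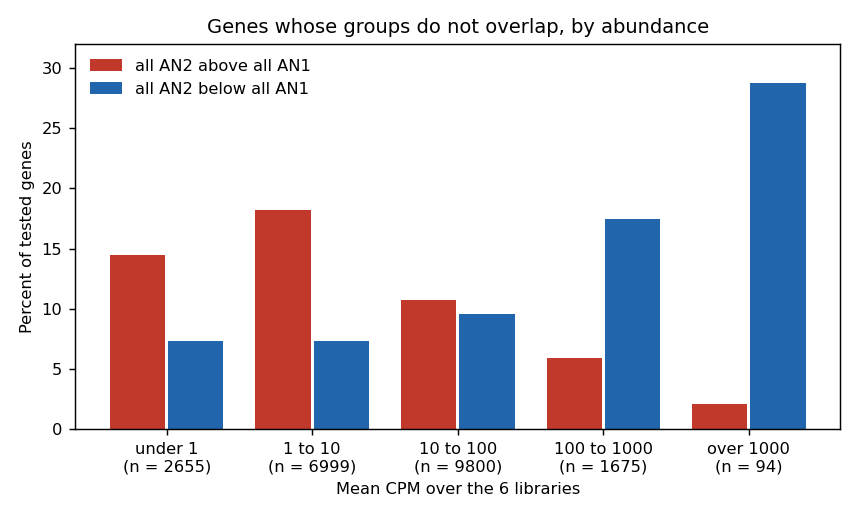
Bars give the percent of tested genes in each class of mean CPM whose 3 AN2 values all lie above (red) or all below (blue) the 3 AN1 values, on TMM-scaled CPM. The red bars fall from 18.2% at 1 to 10 CPM to 2.13% over 1000 CPM, and the blue bars rise from 7.36% to 28.7%.

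The 100 most abundant genes, of which 75 are known by number only, took 24.2% to 25.8% of the counts of the AN1 libraries. They took 24.96% in AN2-2, but 17.2% in AN2-1 and 13.0% in AN2-3. The transcriptome was correspondingly less concentrated in those libraries: 1109 genes in AN2-1 and 1370 in AN2-3 made up 50% of all counts, against 596 in AN2-2 and 638 to 751 in AN1. Of the 100 genes 82 had a negative log2 fold change, with a median of -0.52 against 0.02 for all tested genes, and 28 had all AN2 values below AN1. With library totals these numbers were 75 and 22. EdgeR called 0 of the 100, where 0.697% of all genes were called, and 10 had an unadjusted p under 0.05. The spread is visible in the values, since 86 of the 100 varied less than 2-fold among the AN1 libraries and only 35 among the AN2 libraries.

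Among these 100 genes 2 patterns recurred, while 58 had neither. In the first pattern, held by 28 genes, all AN2 libraries were lower. LOC102580808 stood at 14949, 16510 and 16950 CPM in AN1 and 8495, 10936 and 9015 CPM in AN2, and LOC102577431 at 10250, 12861 and 12069 CPM in AN1 and 6586, 8157 and 5881 CPM in AN2. Both have separate groups with narrow ranges, yet a log2 fold change of -0.77 for each was not called (edgeR adjusted p = 0.389 and 0.371). Per length, their AN1 means were 6831 and 5225 FPKM, against 13716 FPKM for patatin. LOC102600444 (3640 to 4109 CPM in AN1, 1927 to 3255 CPM in AN2) and LOC102605062 (4204 to 4764 and 568 to 3074 CPM) also had all AN2 values below AN1.

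Among named enzymes of the storage route, taken as examples after their values were seen, SS16, GBSS and AGPS1 had this first pattern, whereas the starch branching enzyme SBE1 (LOC102596498) overlapped, at 1441 to 2177 CPM in AN1 and 1396, 1497.5 and 274 CPM in AN2. SS16, a sucrose synthase that splits imported sucrose, stood at 2827, 4031 and 3527 CPM in AN1 and at 2628, 1806 and 518 CPM in AN2. GBSS, the granule-bound starch synthase that makes amylose, stood at 2091 to 3328 CPM in AN1 and at 1957, 2020 and 187 CPM in AN2. AGPS1, a small subunit of ADP-glucose pyrophosphorylase, stood at 2086 to 2288 CPM in AN1 and at 1486, 1878 and 140 CPM in AN2. In GBSS and AGPS1 the AN2-1 and AN2-2 values lie less than 2-fold under the lowest AN1 value, and AN2-3 lies more than 10-fold under it. These 4 genes were not called.

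In the second pattern AN2-1 and AN2-3 were at least 2-fold below the AN1 mean and AN2-2 was not, which held for 18 of the 100. In 4 of these 18 AN2-2 too lay below all AN1 values, so they have both patterns. LOC102577642, a Kunitz-type protease inhibitor (KTI-B), stood at 6048, 5659 and 8400 CPM in AN1 and at 870, 10504 and 19.5 CPM in AN2. LOC102593157 stood at 3672, 4354 and 5344 CPM in AN1 and 146, 4947 and 308 CPM in AN2. LOC102580584 reached 5015 CPM in AN2-2 and 3.25 CPM in AN2-3, between which AN2-1 stood at 176 CPM. In LOC102577642 and LOC102580584 AN2-2 lies above all AN1 values, and in all 3 genes the standard error exceeds 1 on the log2 scale. LOC102580584 was singled out after its values were seen.

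**Figure D4:**
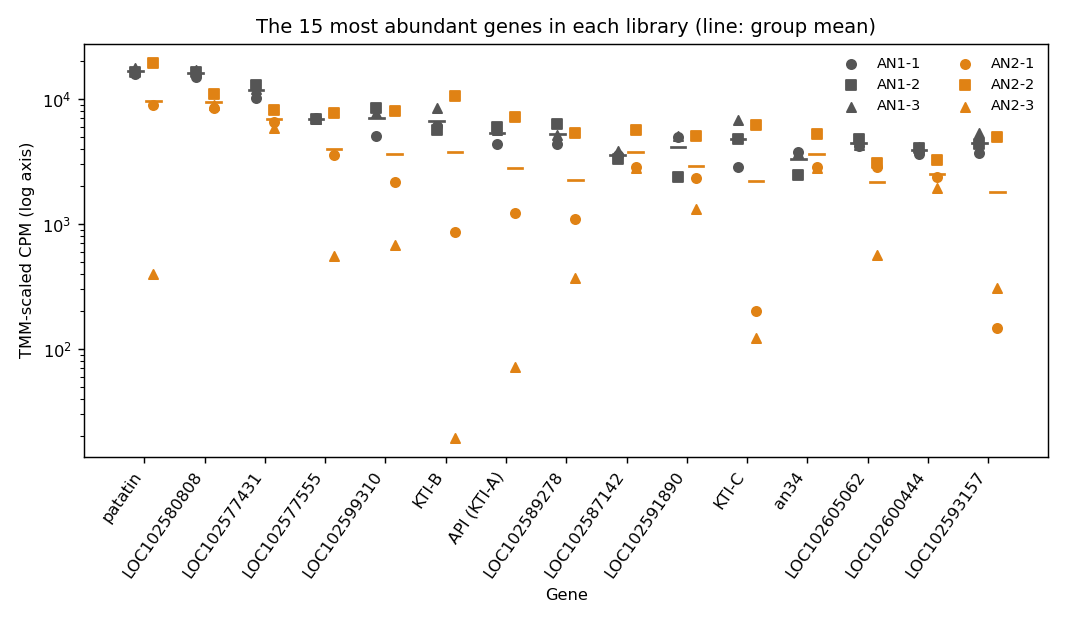
The plot gives the TMM-scaled CPM (log axis) of the 15 genes with the highest mean CPM in each library, with AN1 in grey, AN2 in orange, symbols for library number and lines at group means. The AN1 points of patatin lie between 15824 and 17586 CPM, while its AN2 points run from 19509 CPM in AN2-2 to 400.2 CPM in AN2-3.

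Few abundant genes were higher in AN2. LOC102577567 stood at 1064, 585 and 818 CPM in AN1 and 1584, 2203 and 1945 CPM in AN2, with no overlap (1.22 on the log2 scale, edgeR adjusted p = 0.123), and had the smallest adjusted p of the 100. LOC102599865 and LOC102583272 also had all AN2 values above AN1, with log2 fold changes of 0.32 and 0.54. These 3 were singled out as the complete set of that kind. Of the 15 most abundant genes LOC102587142 (0.09 ± 0.39) and LOC102598404 with the synonym an34 (0.15 ± 0.48) were the positive ones, and the sign of both was negative without AN2-2.

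Gene lists were filled by hand from symbols and synonyms, with earlier results of these data known, and cover few genes each. Their counts stand against 0.646% called higher, 0.0518% called lower, 13.3% with all AN2 values above AN1 and 9.26% with all below among all tested genes. Tuber storage proteins and protease inhibitors had 5 of 6 members negative with a median log2 fold change of -0.82, and 0 called. Their summed level was 32302 to 41784 CPM in AN1, and 13550, 46715 and 1558 CPM in AN2-1 to AN2-3. The group therefore spans more than the whole AN1 range, with AN2-2 above it, and the median was -0.25 without AN2-3 and -2.43 without AN2-2. Patatin (LOC102605260), the main storage protein, stood at 15824, 16536 and 17586 CPM in AN1 and 8963, 19509 and 400.2 CPM in AN2, and the proteinase inhibitor PIN-II (LOC102577839) was the positive member, at 210 to 530.5 CPM in AN1 and 480 to 841 CPM in AN2.

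Starch synthesis had 8 of 9 tested members negative with a median of -0.83, 0 called and 4 with all AN2 values below AN1. Besides GBSS and AGPS1 these 4 were the starch synthases LOC102577674 (SS3), at 312, 441 and 336 CPM in AN1 and 249, 217 and 101 CPM in AN2, and LOC102583115 (SS2), at 255 to 322 CPM in AN1 and 74.4 to 218 CPM in AN2. In both, all 3 AN2 values are lower, with AN2-3 the lowest. Without AN2-3 the list median was -0.39. The agpS2 gene (LOC102600909), a further pyrophosphorylase subunit, stood at 46.0 to 60.0 CPM in AN1 and 53.7 to 57.2 CPM in AN2, so its groups overlap. In starch breakdown all 5 tested members were negative, the median was -0.65 (-0.34 without AN2-3) and 0 were called. There R1, a glucan water dikinase that phosphorylates starch, stood at 684, 1034 and 743 CPM in AN1 and 522, 429 and 557 CPM in AN2, where AN2-3 is the highest of its group rather than the lowest.

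Sucrose metabolism and transport was mixed, with 6 of 14 positive, a median of -0.02 (0.19 with library totals, -0.25 without AN2-3) and 0 called. The sucrose transporter SUT1 (LOC102594012), which loads the phloem, stood at 94.8, 98.8 and 122 CPM in AN1 and 198, 125 and 263 CPM in AN2. PAIN-1, a vacuolar acid invertase, stood at 17.9 to 28.2 CPM in AN1 and 50.7, 34.9 and 207.5 CPM in AN2. Both have separate groups with the highest value in AN2-3 (edgeR adjusted p = 0.210 and 0.302). UDP-glucose pyrophosphorylase (LOC102577726), which works next to sucrose synthase, had all AN2 values (280 to 489 CPM) below AN1 (492 to 655 CPM).

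Nitrogen uptake and assimilation had 5 of 8 positive with a median of 0.73 and 0 called, and the median was 0.20 without AN2-3. Its members differed in sign. The amino acid permeases aap1 (LOC102597666) and AAP2 had all AN2 values above AN1, aap1 at 7.52, 10.7 and 8.34 CPM against 20.6, 15.5 and 31.9 CPM and AAP2 at 12.6, 6.14 and 18.8 CPM against 60.3, 19.5 and 48.6 CPM. The urease accessory protein gene ureG (LOC102586140) stood at 27.9 to 43.4 CPM in AN1 and 66.8 to 79.1 CPM in AN2. Nitrate reductase NR3, the entry step of nitrate reduction, stood at 2.26, 3.04 and 1.71 CPM in AN1 and 0.878, 1.43 and 0.213 CPM in AN2. Of these 4 the smallest adjusted p was that of aap1 (1.36 ± 0.28, edgeR adjusted p = 0.0664). The other members of the list overlapped between groups. Among them nitrite reductase NIR stood at 0.221 to 1.08 CPM in AN1 and 0.415 to 0.694 CPM in AN2. The gene LOC102596783, with the synonym gln, stood at 139 to 172 CPM in AN1 and 116 to 195 CPM in AN2.

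Regulators of tuberization, flowering and meristems had 18 of 22 positive with a median of 0.76, 2 called higher (TSF and STBRC1B) and 0 lower, and the median was 0.53 without AN2-3. Of the KNOTTED-type homeobox genes, 2 had separate and even groups. POTH15 stood at 15.2, 13.0 and 14.9 CPM in AN1 and 25.01, 29.6 and 26.5 CPM in AN2 (0.91 ± 0.19, edgeR adjusted p = 0.0664), and kn1 (LOC102579398) at 12.2, 12.6 and 12.3 CPM against 24.5, 24.5 and 20.9 CPM (0.91 ± 0.21, 0.0962). In both, every AN2 library is more than 1.5-fold above every AN1 library, and neither passed the threshold. A further one, POTH20 (LOC102601860), overlapped at 76.9 to 99.4 CPM in AN1 and 94.3 to 104 CPM in AN2 (0.16 on the log2 scale). AP1, a MADS-box gene of floral meristems in Arabidopsis, stood at 1.08 to 1.67 CPM and 2.59 to 4.10 CPM. FT overlapped between groups, at 0.348 to 1.28 CPM in AN1 and 0.880 to 3.22 CPM in AN2. BEL5, a BELL-type factor that promotes tuber formation, was among the negative members at 123 to 211 CPM in AN1 and 72.0 to 145 CPM in AN2, also with overlap.

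Among hormone lists, abscisic acid had 8 of 12 positive with a median of 0.45 and 0 called, and 5 of the 12 had all AN2 values above AN1 (13.3% of all genes did). One of them, the kinase gene SnRK2.6 (LOC102599466), stood at 3.45 to 4.23 CPM in AN1 and 7.78, 5.65 and 27.3 CPM in AN2, so its size rests on AN2-3. GAI (LOC102587893), a DELLA repressor of gibberellin responses, stood at 31.1, 37.8 and 33.4 CPM in AN1 and 69.1, 56.5 and 129 CPM in AN2 (edgeR adjusted p = 0.119). IAA2, an auxin-response repressor, stood at 26.4 to 29.9 CPM and 39.4 to 56.4 CPM (0.137). The 2 tested members of the gibberellin list had opposite signs, both of the auxin list were positive, and 1 of 3 cytokinin oxidases was, with 0 called in each.

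Aquaporins and ion transport had 10 of 14 positive with a median of 0.53 (0.34 without AN2-3) and 0 called. PT1, a phosphate transporter, was its closest to a call, in the opposite direction, at 94.8, 88.2 and 90.8 CPM in AN1 and 37.3, 31.3 and 51.4 CPM in AN2 (-1.19 ± 0.23, edgeR adjusted p = 0.0593). The groups are more than 1.5-fold apart at their nearest values. KST1, a potassium channel of guard cells, stood at 0.131, 0 and 0.0553 CPM in AN1 and at 1.34, 2.02 and 9.52 CPM in AN2.

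Photosynthesis genes, a marker of green tissue, had 5 of 5 tested members positive with a median of 2.93 and 0 called, and 1 at an unadjusted p under 0.05. Their summed level was 11.0, 11.1 and 64.4 CPM in AN1 and 74.8, 75.6 and 581 CPM in AN2, so it was highest in AN2-3, and AN1-3 was the highest of AN1. Without AN2-3 the median was 0.37. PSBR, a photosystem II subunit, stood at 9.52, 10.4 and 46.5 CPM in AN1 and 60.4, 69.8 and 299 CPM in AN2, whereas cab1 (LOC102596966), a chlorophyll-binding protein, was at 0 in AN1-1, AN1-2 and AN2-2 and at 5.63 CPM in AN2-3. The Rubisco small subunit genes RBCS-C, rbcS2c (LOC102600888) and RBCS-2B (LOC102601229), too low to be tested, reached 22.6, 1.60 and 1.97 CPM in AN2-3, and their highest value in any of the other 5 libraries was 0.276 CPM. The part of green tissue in the changes of AN2-3 was not tested.

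The remaining lists had medians between -0.43 and 0.64. Cell wall genes (5 of 14 positive, median -0.16) held 1 call, STUGE51, and kinases and calcium signalling (12 of 23 positive, median 0.01) held 1 call, PLC1. In the same 2 lists XEGIP1, an inhibitor of xyloglucan-degrading enzymes, stood at 1.24 to 5.36 CPM in AN1 and 0.186 to 0.342 CPM in AN2, and the burst oxidase RBOHA (LOC102579392) at 20.998 to 39.0 CPM and 8.40 to 10.3 CPM. Both have separate groups and were not called (edgeR adjusted p = 0.106 and 0.119). The other 10 lists had 0 called. Positive members were 9 of 22 for amino acid and polyamine metabolism, 3 of 9 for jasmonate and lipoxygenases, 7 of 11 for defence proteins, 3 of 8 for WRKY factors and 1 of 7 for glycoalkaloids, sterols and phytoalexins. They were 8 of 12 for phenylpropanoids, 4 of 17 for respiration, 7 of 11 for heat shock and stress, 3 of 12 for ribosomal proteins and translation and 0 of 3 for D-type cyclins.

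The list of amino acid and polyamine metabolism differed in summed level rather than in calls, with 9751.6 to 10497 CPM in AN1 and 7029 to 7364 CPM in AN2. Its median was -0.14, which was 0.07 with library totals. Most of the sum comes from a few abundant members, so it does not describe the list as a whole. METK1, the most abundant of them, overlapped between groups (-0.21 on the log2 scale). METK2 (LOC102578902), an S-adenosylmethionine synthetase, stood at 1233, 939 and 1013 CPM in AN1 and 419, 733 and 435 CPM in AN2. SHKB, an enzyme at the entry of aromatic amino acid synthesis, stood at 1538 to 1709 CPM and 821 to 1044 CPM. Without AN2-3 the medians of 6 lists had the other sign, namely cytokinin (-0.27 and 0.14 without it), kinases (0.01 and -0.08), phenylpropanoids (0.64 and -0.44), defence (0.34 and -0.03), ribosomal proteins (-0.19 and 0.08) and D-type cyclins (-0.24 and 0.08). The medians of jasmonate (-0.15), WRKY factors (-0.16), respiration (-0.15) and cell wall (-0.16) were 0.08, 0.07, 0.04 and 0.04 with library totals.

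**Figure D5:**
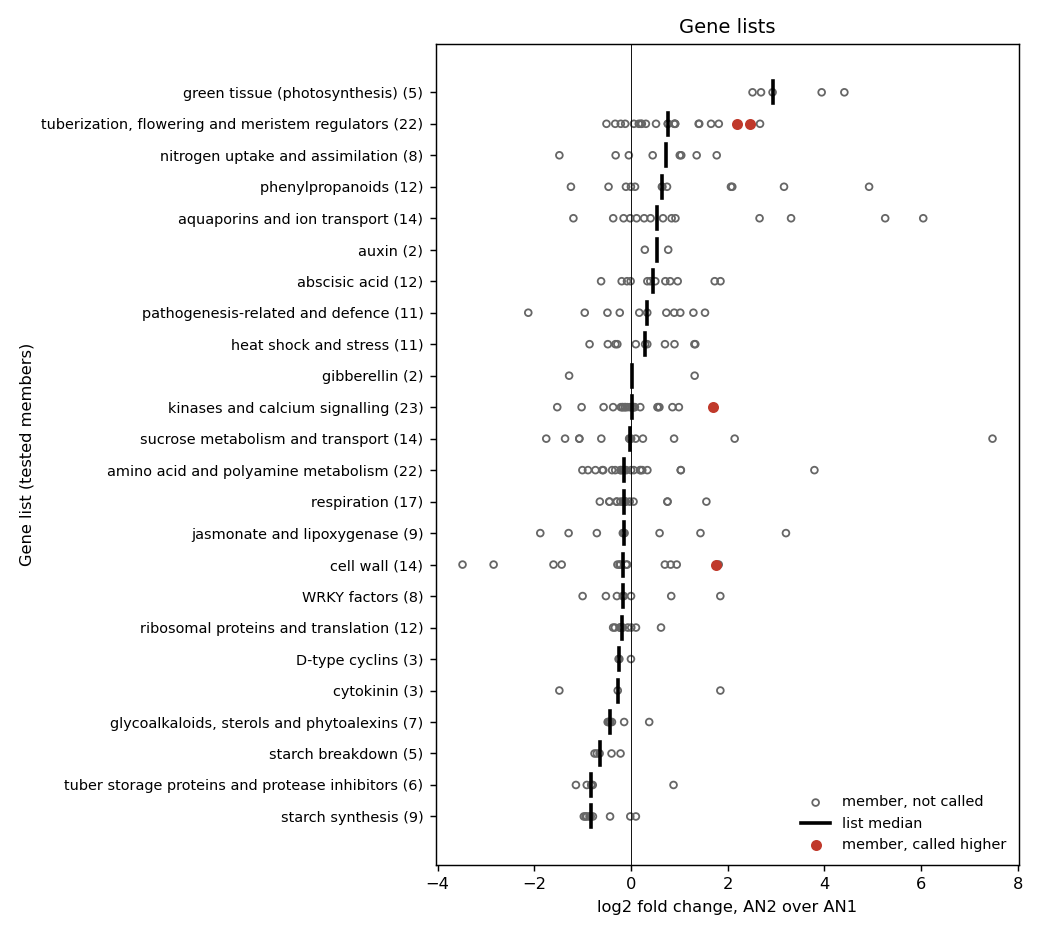
Each row is a gene list with its number of tested members in brackets, and points give the members' log2 fold change of AN2 over AN1, filled red where called. Black bars mark list medians, which run from -0.83 for starch synthesis to 2.93 for photosynthesis, and 4 red points mark TSF, STBRC1B, STUGE51 and PLC1.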

How the data were processed

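Total RNA of stolons was extracted with TRIzol and sequenced from VAHTS Universal V6 libraries, per the labels' protocols. Per the submitters' processing notes, DESeq2, HTSeq, HISAT2, fastp and R 3.2.0 were used. Build, annotation and strandedness: not given in the sources used here, so antisense or overlapping genes cannot be told apart. The authors' deposited counts are raw whole-number read counts for 25702 genes, and the deposited FPKM values equal count per length and library total (largest relative difference 1.71e-07). Names and gene types came from RefSeq's SolTub_3.0 gene table, which gives no product names.

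Counts were tested with edgeR 4.0.16 in R 4.3.3: TMM factors, filterByExpr (21223 genes), 1 mean per treatment over all 9 libraries, robust quasi-likelihood, Benjamini-Hochberg adjusted p under 0.05. The common biological coefficient of variation was 0.417. CPM are TMM-scaled. Values ± SD have n = 3, and the standard error of a fold change comes from its F statistic. The procedure was tested on simulated counts. These had the same spread per gene in all groups and no outlying library, so they do not cover the wider scatter of AN2. The members, and 25 gene lists of 276 genes, were chosen with earlier results of these data known. Genes named are the 10 largest rises and falls called without overlap at 5 CPM or more, the 10 most abundant called, called genes with a name, the 15 most abundant, and 2 members per list of 3 or more by unadjusted p. Of these, 1 gene and 1 list are not reported here. Other list members are named as examples, chosen after their values were seen. Alternatives used DESeq2 1.42.0, limma 3.58.1 (voom, and limma-trend on log2(FPKM+1) and log2(FPKM+0.1) over the same genes), other scalings and filters, and left-out libraries.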

Additional observations from a re-analysis of the deposited data

How the results depend on the processing

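All 148 called genes kept their direction in every one of the 22 alternatives in which they were tested. Their AN1 and AN2 values do not overlap, so a direction could hardly reverse, and keeping it says little. The number of calls did not hold. The counts of genes higher and lower, 137 and 11 by edgeR, were 42 and 3 with the AN1 and AN2 libraries alone, 18 and 1 against a minimum fold of 1.5, 930 and 305 by DESeq2, 2976 and 2284 by voom, 385 and 25 on log2(FPKM+1), 297 and 25 on log2(FPKM+0.1), and 13 and 2 without AN0-1 and AN2-3 together. With the replicate number as a block they were 4 and 1 over 9 libraries and 26 and 1 over 6. Deviations of same-numbered AN1 and AN2 libraries had correlations of -0.03, -0.27 and 0.05, against -0.26 to 0.31 for differently numbered ones. With 3 libraries per group, such values cannot show whether same-numbered libraries share more than a number. With 1 library left out the counts ran from 0 to 275 higher and from 0 to 92 lower. The gene called without AN2-3 was LOC102589836 (edgeR adjusted p = 0.00495). Leaving out a library can only raise a count of separated groups, since fewer values must lie apart. Genes with all AN2 values above AN1 (2816) were 3313 to 4628 with 1 library left out, and those below (1966) were 2560 to 3672. With library totals the latter were 879 and the median of all genes was 0.22 instead of 0.02. Apart from that forced rise, the cause of these shifts was not tested. For the calls, the fit on library totals and the one without AN0-1 and AN2-3 were chosen after seeing the data.

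Signs changed in 11 of 1884 repeats over 86 genes, all 11 in genes that were not called. LOC102587142 was -0.30 with voom, -0.33 without AN2-2 and up to 0.28 with libraries left out. LOC102598404 was -0.25 with voom, -0.04 without AN1-2, -0.22 without AN2-2 and up to 0.32 with libraries left out. CHS2 was -2.24 with voom and ran from -4.32 without AN2-3 to 9.24 without AN1-3. CYCD3.3 ran from -0.47 without AN2-2 to 0.036 without AN1-3. CYCD3.2 was 0.19 with voom and ran from -0.71 without AN2-1 to 0.08 without AN2-3, and was 0.10 with AN0-1 and AN2-3 both left out. The 3 libraries per group limit the precision.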
